A study of Mus musculus with 12 samples.

Results

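The 40 genes described here encode proteins that store, dock, prime and fuse synaptic vesicles, and were picked by gene symbol from the deposited table of 55385 genes. They comprise the C2-domain sensors Doc2a, Doc2b and Rph3a, 13 synaptotagmins, 3 synapsins, 4 further vesicle membrane proteins, 4 SNARE proteins, 3 complexins, 4 Rims, 3 Munc13 proteins and 3 Rab3 GTPases. RNA was sequenced from the brains of male wild-type mice of the strain labelled C57/BL6J, bought at 8 weeks of age, in 4 groups of 3 mice each. The C_W mice were not stressed and were given water in the same volume as the oil, and the C_O mice received krill oil at 200 mg per kg per day for 5 weeks. The MS_W mice went through chronic unpredicted mild stress (CUMS) for 4 weeks and were given water, and the MS_O mice had both CUMS and krill oil. Krill oil was given by gavage and was compared with water, so that no other oil served as a control, and every mouse was perfused with saline before the brain was taken. There was 1 library per mouse, so that MS_W95, for instance, is the library of mouse 95 of the MS_W group.

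At a nerve terminal, synapsins hold vesicles in a reserve, Rab3 and rabphilin bring them to the active zone, Rims and Munc13 proteins dock and prime them, and the SNARE proteins on vesicle and plasma membrane pull both membranes together. Synaptotagmins sense calcium and complexins hold the SNARE complex ready. Doc2 proteins are soluble sensors with 2 C2 domains and a high affinity for calcium, linked to spontaneous and asynchronous release, and Doc2b also serves insulin secretion and glucose uptake outside the brain. Synaptotagmin 2 and Vamp1 are the forms typical of fast neurons of the brainstem, spinal cord and cerebellum, where synaptotagmin 1 and Vamp2 prevail in the forebrain.

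Values are FPKM, fragments scaled to transcript length and to the mapped fragments of the library, as the authors deposited them. All 40 genes passed the filter for the test, a mean of at least 0.1 FPKM, as did 21393 genes in all. The libraries held between 50912906 and 75678721 estimated counts, and all 3 C_W libraries (69768244 to 75678721) were larger than the MS_W libraries (51748181 to 61608502). The study lists fewer filtered reads per library in each group, so these estimated counts are not numbers of reads. Libraries C_O72 and MS_W95 stood apart. They correlated with each other at 0.970 across genes on the log2 scale and with the other 10 libraries at no more than 0.937, while those 10 correlated at 0.959 or more among themselves. The label names brain and the study whole brain, but in the other 10 libraries the cerebellar genes Gabra6, Cbln3 and Pcp2 lay at or below 0.21 FPKM and the sum of 7 hindbrain and spinal cord genes at or below 0.0617 FPKM. In C_O72 and MS_W95 that sum was 74.0 and 27.3 FPKM, and the sum of 7 cerebellar genes was 542 and 1193 FPKM, against 43.0 to 99.1 elsewhere. The comparisons below are repeated on the 10 libraries that remain when both are left out, so that C_O and MS_W each lack a mouse there. In whole tissue, fewer cells of a type and less RNA per cell cannot be told apart.

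**Figure D1:**
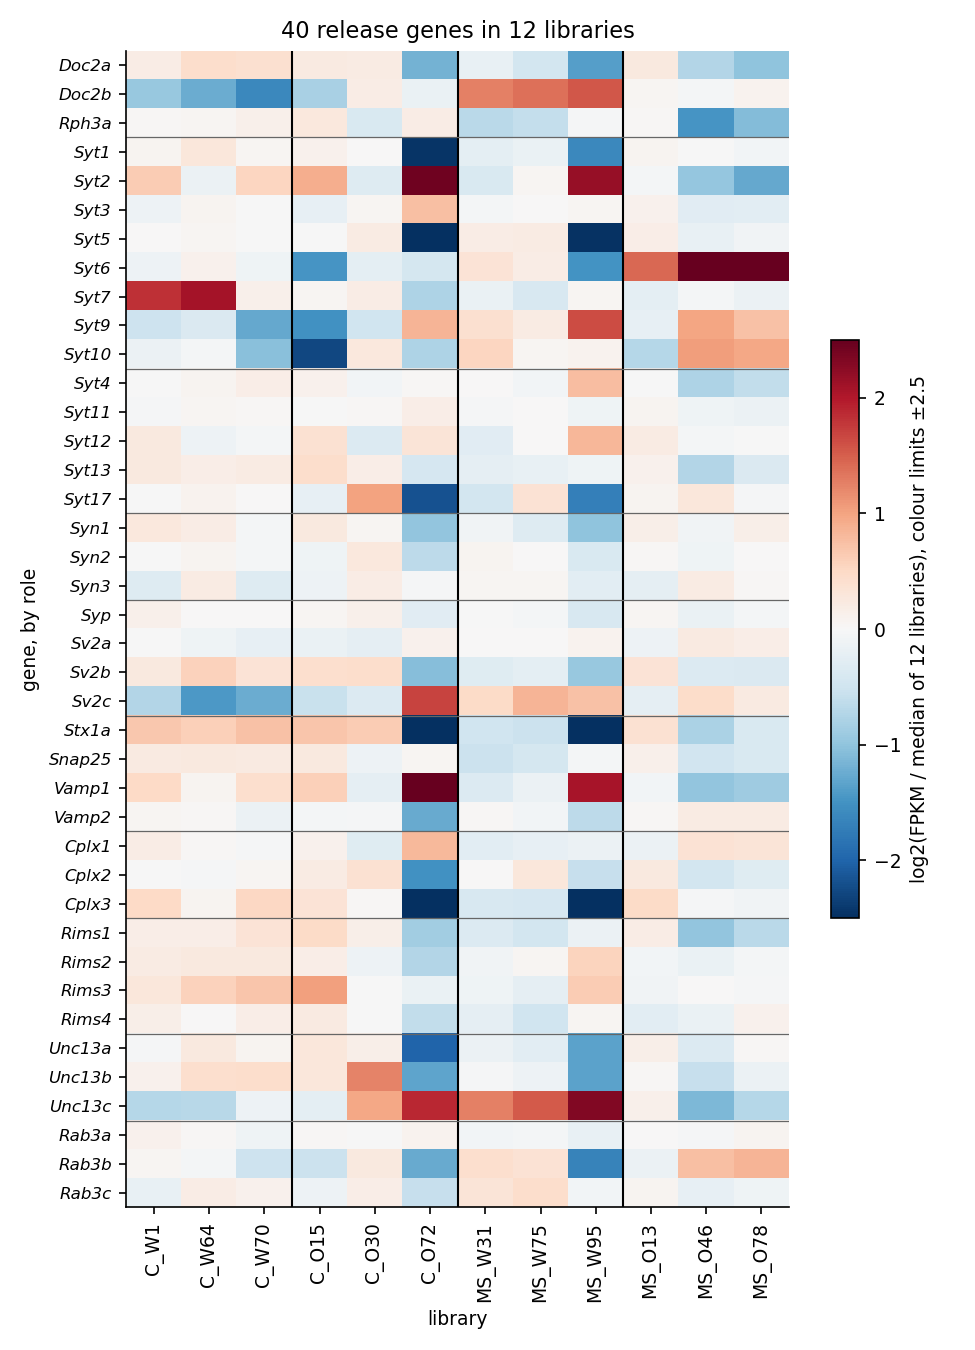
Each row is 1 of the 40 genes, grouped by role, and each column is 1 library, with the 4 groups separated by black lines. Colour gives log2 of the FPKM over the gene's median of the 12 libraries. C_O72 and MS_W95 share a block of low values (Syt1, Syt5, Stx1a, Cplx3) and high values (Syt2, Vamp1), Doc2b is highest in the 3 MS_W libraries, and Syt6 in the 3 MS_O libraries.

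The promoters of 3 genes are shown as examples of genes whose levels in both libraries that stood apart lay outside the other 10, Vamp1 above them and Stx1a and Cplx3 below. RefSeq promoters (GRCm38.p6, 250 bases before to 50 after the start) were at hand for 27 of the 40 genes, Doc2b not among them, with 38 start sites in all. The capitals mark the GC box GGGCGG, the motif of Sp family factors, searched on both strands.
Vamp1: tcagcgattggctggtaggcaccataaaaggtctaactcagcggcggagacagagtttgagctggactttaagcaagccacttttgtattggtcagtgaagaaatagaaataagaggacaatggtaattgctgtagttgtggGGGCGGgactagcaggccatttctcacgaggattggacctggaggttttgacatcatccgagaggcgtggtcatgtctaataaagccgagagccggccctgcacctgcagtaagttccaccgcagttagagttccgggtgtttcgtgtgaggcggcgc
Stx1a: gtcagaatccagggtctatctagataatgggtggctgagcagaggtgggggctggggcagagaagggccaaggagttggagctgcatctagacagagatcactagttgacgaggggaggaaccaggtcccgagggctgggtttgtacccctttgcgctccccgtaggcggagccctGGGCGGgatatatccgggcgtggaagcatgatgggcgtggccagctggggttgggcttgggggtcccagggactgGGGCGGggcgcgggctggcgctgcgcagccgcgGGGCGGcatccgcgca
Cplx3: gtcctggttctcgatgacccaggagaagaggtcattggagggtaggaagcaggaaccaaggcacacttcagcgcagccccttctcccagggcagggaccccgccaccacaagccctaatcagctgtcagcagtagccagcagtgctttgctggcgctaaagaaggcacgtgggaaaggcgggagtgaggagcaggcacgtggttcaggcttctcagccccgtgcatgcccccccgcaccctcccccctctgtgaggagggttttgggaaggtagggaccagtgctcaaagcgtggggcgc
The first lies at chr6:125215331-125215630 on the plus strand, the second at chr5:135023232-135023531 on the plus strand and the third at chr9:57606232-57606531 on the minus strand. The Vamp1 promoter held 1 GC box, that of Stx1a 3 and that of Cplx3 none. GC boxes occurred in 26 of the 38 promoters (68.4%), against 35.7% of the 32851 promoters in the whole collection. The cAMP response element TGACGTCA occurred in 1 of the 38 (2.63%) and in 1.79% of all. Start sites of the same gene were counted separately, and the whole collection was not limited to genes expressed in brain. The shares are therefore a description.

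Vamp1, the vesicle SNARE of fast synapses, measured 152 FPKM in C_O72 and 68.6 FPKM in MS_W95, and 8.27 to 24.8 FPKM in the other 10 libraries. Syt2, its companion calcium sensor, measured 37.5 and 31.4 FPKM in the same libraries and at most 13.1 FPKM elsewhere. Unc13c, the Munc13 form abundant in cerebellar granule cells, measured 7.89 and 10.6 FPKM, against at most 6.18 FPKM elsewhere. These were the 3 of 40 genes with both libraries above all others, a pattern that 18.9% of the 13621 genes with a mean of at least 1 FPKM had. The opposite pattern, with both below all others, was found for 15 of the 40 genes and for 14.3% of the 13621. Among them, Stx1a, a plasma membrane SNARE, measured 4.64 and 5.36 FPKM against 41.8 to 121 FPKM elsewhere. The synaptotagmin Syt5 measured 7.92 and 13.5 FPKM against 65.8 to 86.8 FPKM. Cplx3, a complexin best known from ribbon synapses, measured 0.253 and 0.469 FPKM against 3.94 to 7.60 FPKM. The other 12 were Doc2a, Syt1, Syt17, Syn1, Syn2, Syp, Sv2b, Vamp2, Cplx2, Unc13a, Unc13b and Rab3b. Both libraries were chosen as standing apart with these values in the table, so these counts are a description.

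**Figure D2:**
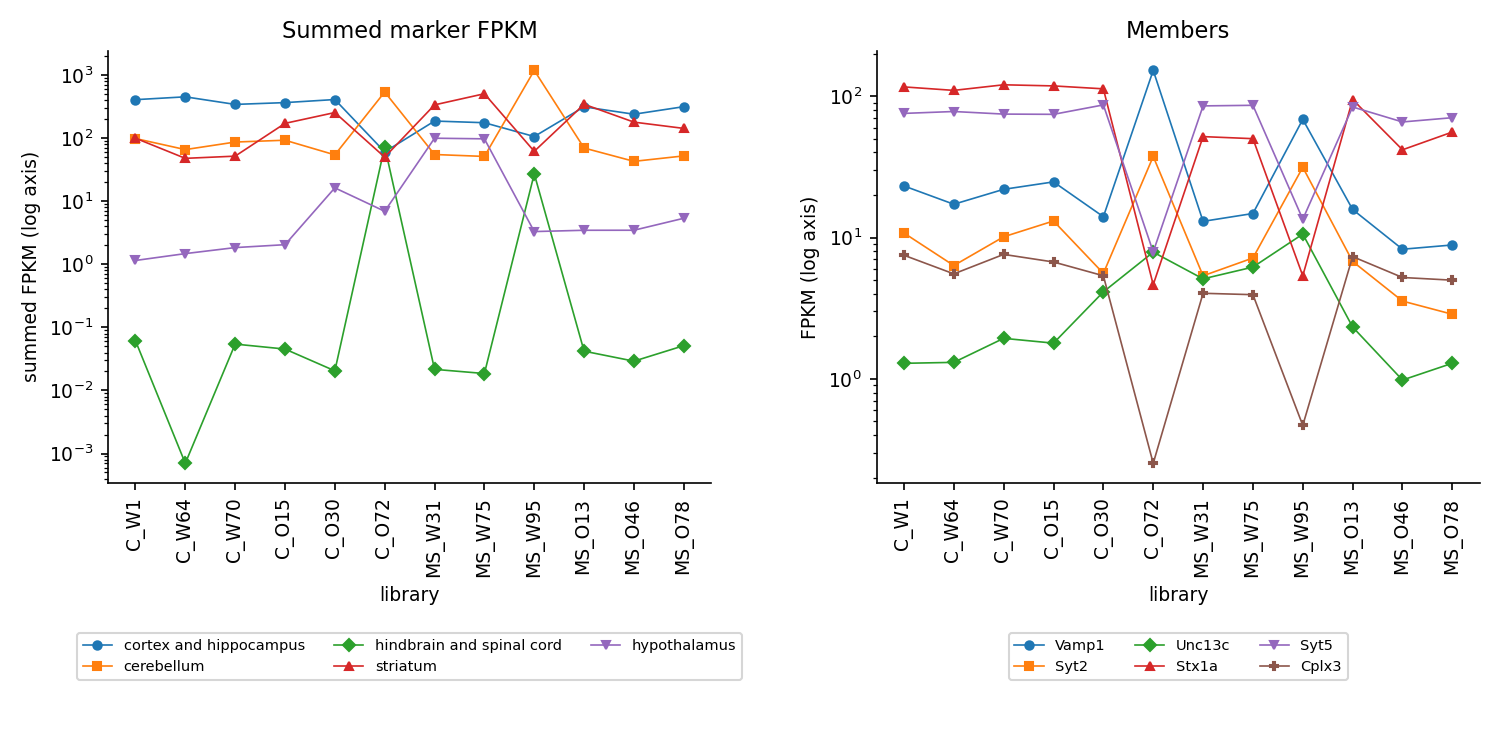
Left, summed FPKM of marker genes of 5 brain regions, and right, FPKM of 6 release genes, per library on log axes. Cerebellar and hindbrain sums, Vamp1 and Syt2 peak in C_O72 and MS_W95 while Stx1a, Syt5 and Cplx3 drop there, and the hypothalamic sum is about 100 FPKM in MS_W31 and MS_W75 alone.

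The question of the first comparison was what CUMS changed in mice on water. Doc2b rose in the MS_W mice. It measured 3.54, 2.87 and 2.24 FPKM in C_W1, C_W64 and C_W70, and 16.4, 17.7 and 19.9 FPKM in MS_W31, MS_W75 and MS_W95. The 2 groups did not overlap, and between the highest of the other 9 libraries (7.72 FPKM) and the lowest MS_W library lay the widest step in the order of the 12 values. The means were 2.88 ± 0.648 and 18.0 ± 1.77 FPKM (SD, n = 3), a 6.25-fold difference, with a log2 difference of 2.30 on the log2(FPKM + 1) scale (SE 0.196, limma, adjusted p = 0.00542). The list of 40 was drawn up around Doc2b with earlier results of these data known, so its call is no independent result. Doc2b was the only 1 of the 21393 genes past an adjusted p of 0.05 in this comparison (0.00467%), and hence the only 1 of the 40. The same was found by edgeR (0.00467%), while DESeq2 called 4 of the 40, Doc2b, Sv2c, Syt7 and Unc13c, among 1.87% of all genes with an adjusted p. In a limma fit of C_W and MS_W alone 2 of the 40 passed, Doc2b and Sv2c (0.566% of all genes). Without MS_W75 the difference was 2.31 with an adjusted p of 0.0555 (limma), and without C_O72 and MS_W95 it was 2.23 with an adjusted p of 0.00414.

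Doc2b measured 19.9 FPKM in MS_W95 and 6.07 FPKM in C_O72, the other library rich in cerebellar and hindbrain markers. These 2 libraries differed in those markers too. The cerebellar sum was 1193 FPKM in MS_W95 and 542 FPKM in C_O72, and the hindbrain and spinal cord sum 27.3 and 74.0 FPKM. Marker sums of other regions also differed between MS_W and C_W. The sum of 7 cortical and hippocampal genes was 106 to 188 FPKM in MS_W and 344 to 454 FPKM in C_W, and that of 9 hypothalamic genes was 100, 97.9 and 3.31 FPKM in MS_W31, MS_W75 and MS_W95 against 1.15 to 1.85 FPKM in C_W. Striatal markers summed to 338, 508 and 62.1 FPKM in the same MS_W mice and to 48.0 to 100 FPKM in C_W. The cortical and hippocampal sum and the hypothalamic sum had no overlap between MS_W and C_W. The striatal sum of MS_W95 lay within the C_W range. The hypothalamic sum of MS_W95 lay below those of all MS_O libraries (3.47 to 5.39 FPKM). It also lay below those of C_O30 (16.3 FPKM) and C_O72 (6.95 FPKM). The sum of 6 thalamic genes was highest of the 12 libraries in MS_W95, at 238 FPKM. It was 117 and 73.1 FPKM in MS_W31 and MS_W75 and 26.1 to 76.2 FPKM in C_W. The part of regional make-up in the Doc2b difference was not tested.

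**Figure D3:**
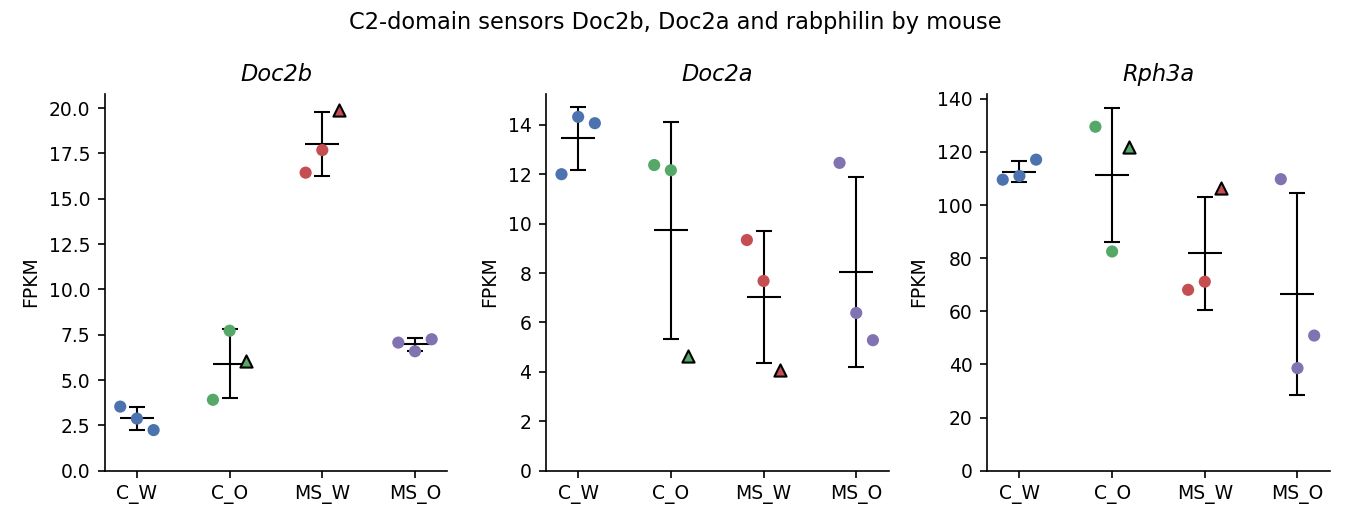
FPKM of Doc2b, Doc2a and Rph3a in each mouse by group, with the mean (bar) and SD (whiskers) of 3 mice, and triangles for C_O72 and MS_W95. The 3 MS_W mice sit at 16.4 to 19.9 FPKM of Doc2b, above every other mouse, and the mean of Doc2a is highest in C_W.

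Doc2b (ENSMUSG00000020848) lies on chromosome 11 from 75768966 to 75796049 on the minus strand of mm10 and has 1 transcript in the table. Its model in GENCODE M21 has 9 exons and codes for 412 residues. Its estimated counts ran from 827 to 6044 per library, so that counting error was small beside the group difference. Gm12339, on the opposite strand, overlaps it but never passed 0.0531 FPKM, and whether the counting used strand is not given in the sources used here. Ywhae, 3121 bp away, measured 197 to 241 FPKM and Myo1c, 95056 bp away, 2.36 to 3.93 FPKM. Crk, 62901 bp away, measured 6.51 FPKM in MS_W95 and 20.99 to 25.96 FPKM in the others. The noncoding Gm16075 stayed at or below 1.19 FPKM. Rph3al, which encodes the rabphilin-related effector Noc2, lies 34950 bp away at its nearer end, on the same strand as Doc2b, and is described with the further genes below.

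Of the relatives of Doc2b, Doc2a and Rph3a were lower in MS_W. Rph3al was higher there (0.588 to 1.21 FPKM) than in C_W (0.166 to 0.194 FPKM), and Doc2g overlapped between the groups. Doc2a measured 11.999, 14.3 and 14.1 FPKM in C_W1, C_W64 and C_W70 and 9.34, 7.68 and 4.09 FPKM in MS_W31, MS_W75 and MS_W95, without overlap. Its log2 difference was -0.91 (SE 0.390, limma, unadjusted p = 0.0417, adjusted p = 0.461). Rph3a, the rabphilin that binds Rab3, measured 110, 111 and 117 FPKM in C_W and 68.1, 71.1 and 106 FPKM in MS_W, again without overlap, at a log2 difference of -0.48 (adjusted p = 0.606, limma). Neither passed the test. Per kilobase, Rph3a was the most abundant of the 3 in every library.

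Of the 40 genes, 8 had an unadjusted p under 0.05 in MS_W vs C_W (20%), against 10.5% of all genes tested. Higher in MS_W were 4, Doc2b, Unc13c, Sv2c and Syt9 (6.71% of all genes were), and lower were 4, Doc2a, Syt7, Snap25 and Sv2b (3.79% of all). Groups did not overlap for 21 genes (24.6% of all genes), 6 higher (16.3% of all) and 15 lower (8.22% of all). The median log2 difference was -0.18 over the 40 genes and 0.06 over all genes. Without C_O72 and MS_W95 the unadjusted count was 15 (15.4% of all genes), 29 genes did not overlap (38.8% of all), and 2 passed an adjusted p of 0.05 (1.15% of all), Doc2b and Sv2c.

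Sv2c, a vesicle glycoprotein enriched in the basal ganglia, measured 4.94, 3.03 and 3.45 FPKM in C_W and 11.5, 14.8 and 13.7 FPKM in MS_W. Every MS_W mouse was above every C_W mouse, and the log2 difference was 1.59 (SE 0.448, limma, adjusted p = 0.301), or 1.57 with an adjusted p of 0.0166 in the 10 libraries. Its relative Sv2b, the form of forebrain excitatory terminals, measured 63.1, 79.4 and 67.4 FPKM in C_W and 43.3, 44.8 and 27.4 FPKM in MS_W, a log2 difference of -0.87 (SE 0.372, adjusted p = 0.460). Sv2a, the form found in nearly all terminals, measured 106 to 122 FPKM in C_W and 124 to 131 FPKM in MS_W. Syp, the vesicle protein synaptophysin, measured 299 to 324 FPKM in C_W and 224 to 293 FPKM in MS_W. All 4 vesicle membrane genes had groups without overlap, 2 in each direction.

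Unc13c, which primes vesicles, measured 1.29, 1.31 and 1.94 FPKM in C_W and 5.10, 6.18 and 10.6 FPKM in MS_W, without overlap and at a log2 difference of 1.68 (SE 0.388, limma, adjusted p = 0.243). The major forebrain form Unc13a measured 23.1 to 27.6 FPKM in C_W and 9.26 to 21.1 FPKM in MS_W, and Unc13b measured 1.45 to 1.84 and 0.534 to 1.32 FPKM. Both were thus lower in every MS_W mouse, with the lowest value in MS_W95, and neither passed the test.

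Among the calcium-binding synaptotagmins, Syt9 measured 2.91, 3.26 and 1.73 FPKM in C_W and 5.49, 4.84 and 12.9 FPKM in MS_W, a log2 difference of 1.18 (SE 0.473, limma, adjusted p = 0.436). Syt7, a slow high-affinity sensor of asynchronous release, measured 39.8, 47.9 and 12.3 FPKM in C_W and 10.1, 8.57 and 11.6 FPKM in MS_W, a log2 difference of -1.44 (SE 0.415, adjusted p = 0.306). Only C_W1 and C_W64 were high for Syt7, and the other 10 libraries, C_W70 among them, lay between 6.59 and 12.8 FPKM. Its table entry pools 15 transcripts, so the FPKM depends on how reads were shared among them. Syt1, the main forebrain sensor of fast release, measured 197 to 231 FPKM in C_W, 160 and 169 FPKM in MS_W31 and MS_W75, and 62.1 FPKM in MS_W95. Of the 5 other synaptotagmins, Syt4, Syt11, Syt12, Syt13 and Syt17, which bind calcium weakly or not at all, none had an unadjusted p under 0.05.

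Snap25, a plasma membrane SNARE, measured 413, 421 and 410 FPKM in C_W and 242, 262 and 339 FPKM in MS_W. The groups did not overlap, and the log2 difference was -0.57 (SE 0.185, limma, adjusted p = 0.352). Stx1a measured 116, 110 and 121 FPKM in C_W and 51.8, 50.1 and 5.36 FPKM in MS_W. Its log2 difference of -2.18 was the most negative of the 40, but with the spread of the 2 libraries apart its SE was 1.12 and its adjusted p 0.519, and without them the difference was -1.17 (SE 0.271, adjusted p = 0.0999). Vamp1 and Vamp2 overlapped between the groups. Cplx1 and Cplx3, all 3 Munc13 genes and Syn1 did not overlap, and Rims1 was the 1 Rim without overlap, at 22.6 to 25.4 FPKM in C_W and 14.7 to 18.2 FPKM in MS_W. None of the 3 Rab3 genes had an unadjusted p under 0.05, and Rab3a, the main form in brain, had the smallest ratio of highest to lowest value of the 40, 1.23, at 204 to 250 FPKM in the 12 libraries.

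**Figure D4:**
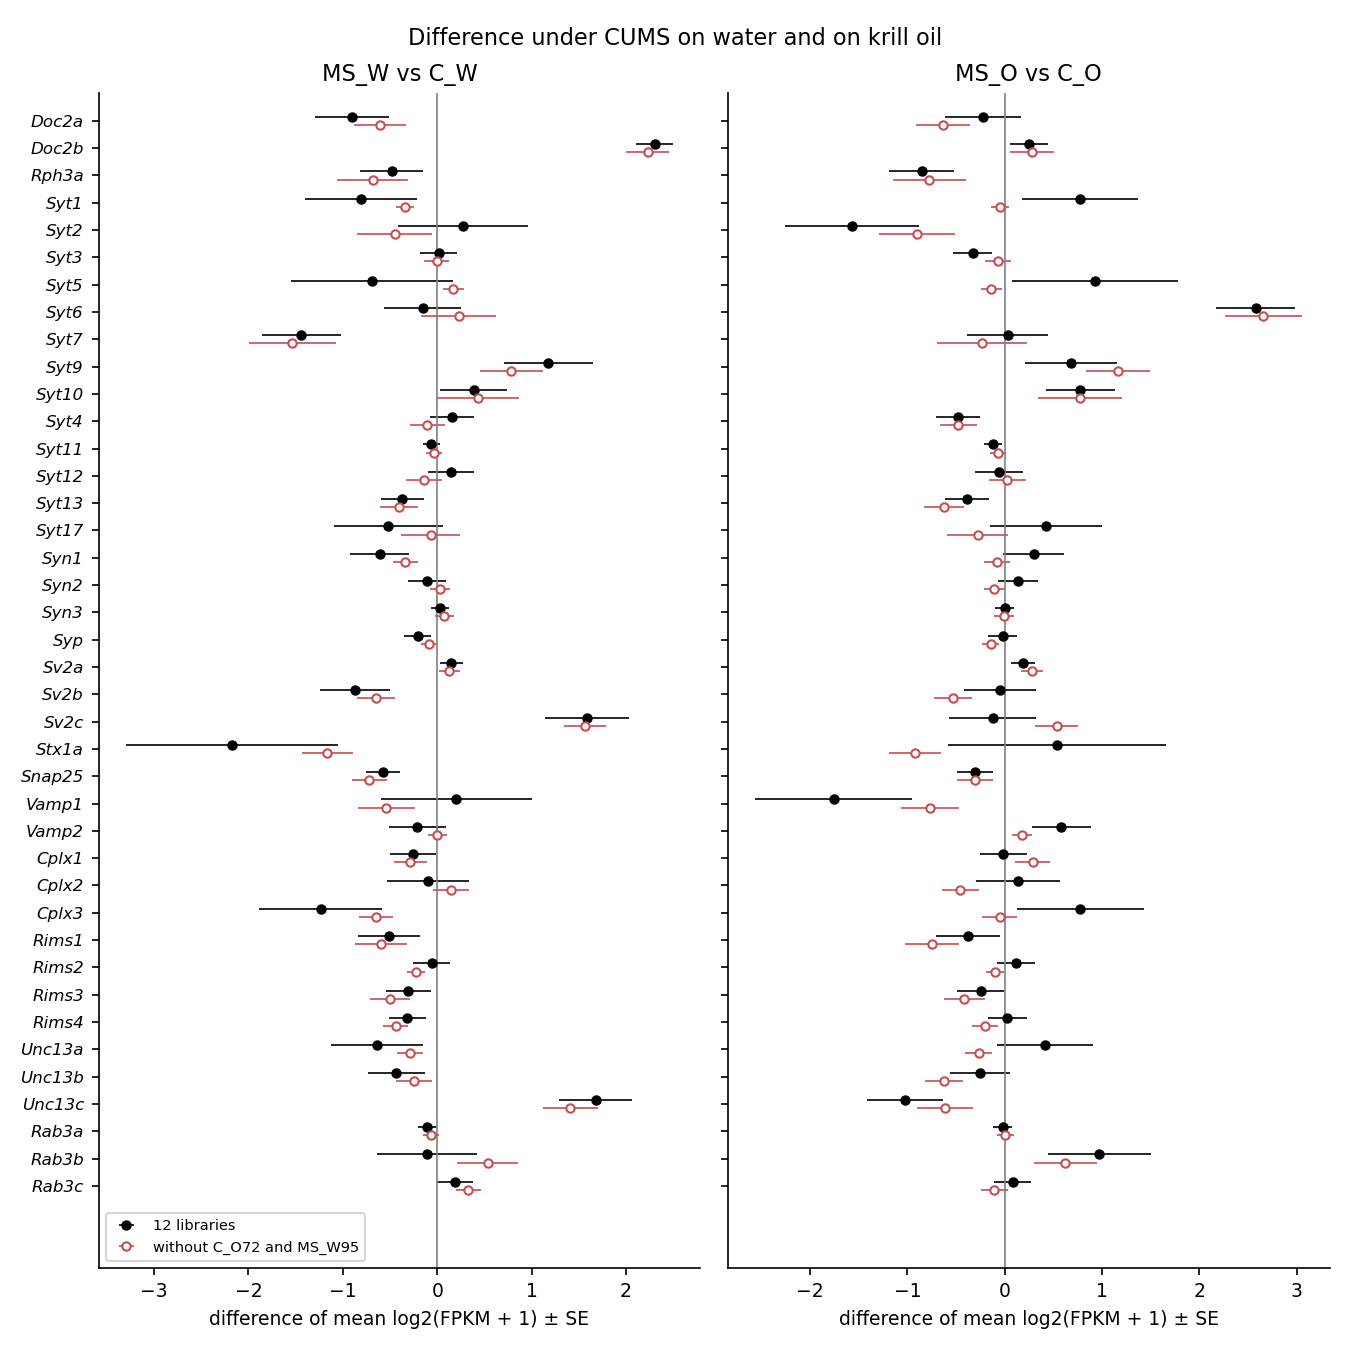
Differences of mean log2(FPKM + 1) between stressed and unstressed mice on water (left) and on krill oil (right) for the 40 genes, with SE, in 12 libraries (filled) and in 10 (open). On water Doc2b sits at 2.30 and 2.23, and on krill oil Syt6 sits at 2.58 and 2.66, while Syt1, Syt5, Stx1a, Vamp1 and Cplx3 shift between the 2 fits.

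The second comparison asked what CUMS changed in mice on krill oil. None of the 40 genes passed an adjusted p of 0.05 (limma), 1 gene of the 21393 did (0.00467%), and 4 of the 40 had an unadjusted p under 0.05 (8.88% of all genes). These were Syt6, which was higher in MS_O (6.69% of all genes were), and Unc13c, Rph3a and Syt2, which were lower (2.18% of all). By edgeR none passed either (0.00467% of all genes), and by DESeq2 Syt6 did (0.862% of all). Doc2b measured 3.91, 7.72 and 6.07 FPKM in C_O15, C_O30 and C_O72 and 7.07, 6.59 and 7.25 FPKM in MS_O13, MS_O46 and MS_O78. The MS_O mice lay inside the range of the C_O mice, with a log2 difference of 0.25 (SE 0.196, adjusted p = 0.726).

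Syt6, a synaptotagmin known from sperm acrosomal exocytosis and also made in brain, measured 1.06, 2.49 and 2.16 FPKM in the C_O mice and 8.01, 21.9 and 22.4 FPKM in MS_O13, MS_O46 and MS_O78. No other group passed 3.72 FPKM. The means were 1.902 ± 0.749 and 17.4 ± 8.17 FPKM (SD, n = 3), a 9.17-fold difference, and the log2 difference was 2.58 (SE 0.406, limma, unadjusted p = 7.07e-05, adjusted p = 0.335), the third smallest p of all genes tested. Without C_O72 and MS_W95 it was 2.66 (adjusted p = 0.233), and without MS_O13 Syt6 passed the adjusted threshold. Olfactory bulb markers, a sum of 7 genes, were 54.1, 214 and 210 FPKM in MS_O13, MS_O46 and MS_O78 and at most 97.8 FPKM in the other 9 libraries. MS_O13 was thus the lowest of the MS_O mice for both. Its olfactory bulb sum lay below those of C_W1 and C_W64 (both 66.1 FPKM), MS_W75 (73.7 FPKM) and MS_W31 (97.8 FPKM). Syt6 measured 2.72, 3.19, 3.35 and 3.72 FPKM in these libraries, below its level in MS_O13. The part of the olfactory bulb markers in the Syt6 difference was not tested.

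**Figure D5:**
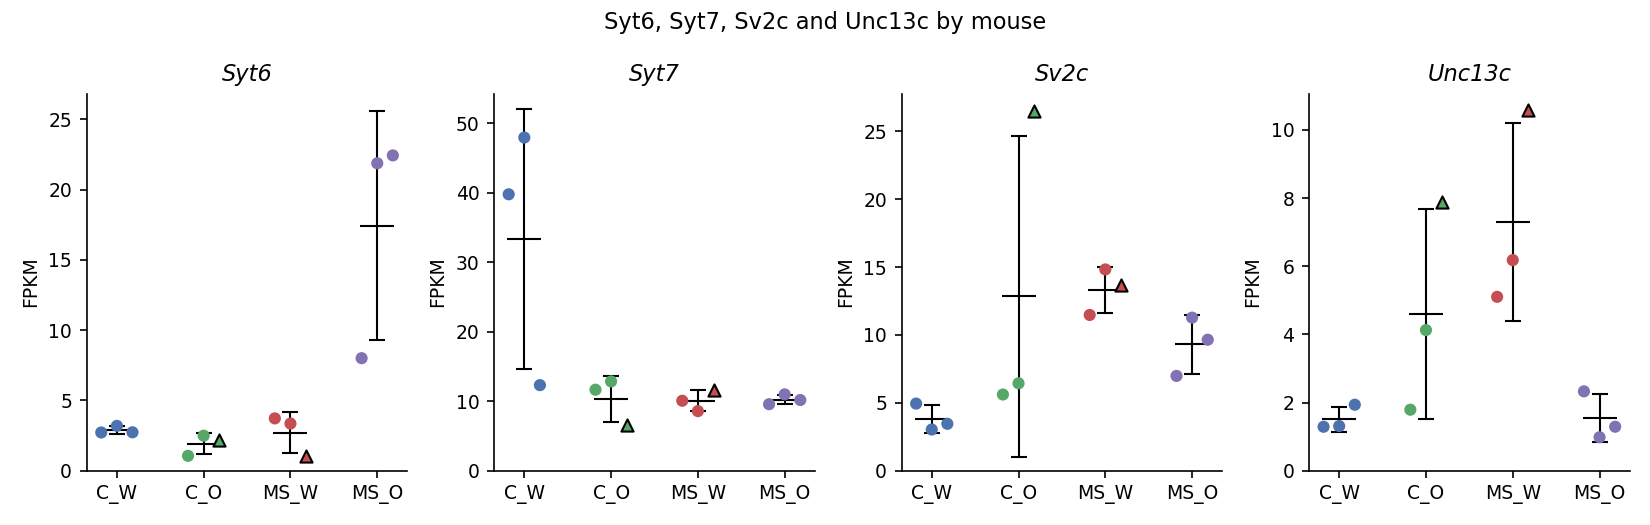
FPKM of Syt6, Syt7, Sv2c and Unc13c in each mouse by group, with mean and SD of 3 mice, and triangles for C_O72 and MS_W95. Syt6 is at 8.01 to 22.4 FPKM in MS_O and at most 3.72 FPKM elsewhere, Syt7 is high in 2 of the C_W mice only, and Sv2c and Unc13c are higher in MS_W than in C_W.

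Unc13c measured 1.79, 4.13 and 7.89 FPKM in C_O and 2.33, 0.981 and 1.29 FPKM in MS_O, with overlap, at a log2 difference of -1.02 (SE 0.388, limma, adjusted p = 0.504). Syt2 measured 13.1, 5.58 and 37.5 FPKM in C_O and 6.78, 3.55 and 2.87 FPKM in MS_O, a log2 difference of -1.57 (SE 0.688, adjusted p = 0.557). In both genes the highest C_O value came from C_O72. Rph3a measured 130, 82.5 and 122 FPKM in C_O and 110, 38.6 and 50.9 FPKM in MS_O, a log2 difference of -0.85 (SE 0.336, adjusted p = 0.521). Only Syt6 and Vamp2 had groups without overlap (12.2% of all genes did), both higher in MS_O (8.9% of all genes), none lower (3.29% of all), and Vamp2, the main vesicle SNARE of the forebrain, measured 159 to 373 FPKM in C_O and 386 to 435 FPKM in MS_O. Without C_O72 and MS_W95 groups did not overlap for 11 genes (26.8% of all), of which 5 were higher (18.9% of all), Syt6, Syt9, Sv2a, Sv2c and Vamp2, and 6 lower in MS_O (7.9% of all), Syt7, Syt13, Sv2b, Stx1a, Unc13a and Unc13b. In the 10 libraries 13 of the 40 genes had an unadjusted p under 0.05, against 13.6% of all genes, 4 of them higher (9.62% of all) and 9 lower (3.99% of all), and none passed an adjusted p of 0.05, as against 0.014% of all genes. The median log2 difference over the 40 genes was 0.01 in 12 libraries and -0.12 in 10, beside 0.03 and 0.05 over all genes.

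The third comparison set krill oil against water without CUMS. None of the 40 genes and none of all genes passed an adjusted p of 0.05 (limma, 0%), nor did any of the 40 by edgeR (0%), and DESeq2 called 2, Doc2b and Syt7 (0.255% of all genes). By limma 4 of the 40 had an unadjusted p under 0.05 (3.55% of all genes), with Doc2b, Sv2c and Unc13c higher (1.51% of all) and Syt7 lower in C_O (2.04% of all). Doc2b was higher in every C_O mouse than in every C_W mouse, with means of 5.90 ± 1.91 and 2.88 ± 0.648 FPKM (SD, n = 3) and a log2 difference of 0.80 (SE 0.196, unadjusted p = 0.00199, adjusted p = 0.908). Sv2c measured 5.61, 6.44 and 26.5 FPKM in C_O against 3.03 to 4.94 FPKM in C_W, a log2 difference of 1.22 (SE 0.448, adjusted p = 0.908), and the highest of these values was that of C_O72. Unc13c had a log2 difference of 1.01 and Syt7 of -1.44, with C_O values of 11.7, 12.8 and 6.59 FPKM for Syt7. No overlap was found for 4 of the 40 (9.42% of all genes), Doc2b and Sv2c higher (4.08% of all) and Syt6 and Rims2 lower (5.34% of all). Without C_O72 and MS_W95, 3 of the 40 had an unadjusted p under 0.05 (4.06% of all genes) and none an adjusted p under 0.05 (0.00467% of all).

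The fourth comparison set krill oil against water under CUMS. None of the 40 passed an adjusted p of 0.05 by limma (0.00467% of all genes did) or by edgeR (0.00467%), and DESeq2 called Doc2b, Syt6 and Unc13c (0.373% of all). By limma 4 of the 40 had an unadjusted p under 0.05 (6.09% of all genes), Syt6 higher (2.63% of all) and Doc2b, Unc13c and Syt4 lower in MS_O (3.46% of all). Doc2b measured 6.59 to 7.25 FPKM in the MS_O mice and 16.4 to 19.9 FPKM in the MS_W mice, and the groups did not overlap. The MS_O mean of 6.97 ± 0.343 FPKM was 0.387 of the MS_W mean (log2 difference -1.25, SE 0.196, limma, unadjusted p = 6.77e-05, adjusted p = 0.115). In a limma fit of MS_W and MS_O alone, which called Doc2b among 0.0561% of all genes, the adjusted p was 0.0400. Without C_O15, which is not part of this comparison but of the shared spread, it was 0.0464 (limma). With other single libraries left out it reached 0.504 (limma), and over the other limma, edgeR and DESeq2 alternatives it reached 0.382. Unc13c measured 0.981 to 2.33 FPKM in MS_O and 5.10 to 10.6 FPKM in MS_W, without overlap and at a log2 difference of -1.69 (SE 0.388, adjusted p = 0.432). Syt6 was 2.28 higher on the log2 scale in MS_O (SE 0.406, adjusted p = 0.230), without overlap. Syt4, a synaptotagmin found on vesicles of peptide and neurotrophin release, measured 41.7, 39.2 and 70.1 FPKM in MS_W and 40.9, 24.2 and 26.9 FPKM in MS_O, with overlap, and its log2 difference of -0.68 had an adjusted p of 0.776. Groups did not overlap for 7 of the 40 genes (12.3% of all), of which Syt1, Syt6, Cplx3 and Rab3a were higher (4.64% of all) and Doc2b, Sv2c and Unc13c lower in MS_O (7.66% of all). In 10 libraries 6 genes had an unadjusted p under 0.05, against 8.54% of all genes, and none an adjusted p under 0.05 (0.271% of all).

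The interaction of CUMS and krill oil tested whether the difference under CUMS was the same on water and on krill oil. It shares all its libraries with the comparisons above. For Doc2b the difference was 2.30 on water and 0.25 on krill oil, so that the interaction was -2.06 on the log2 scale (SE 0.278, limma, unadjusted p = 1.86e-05, adjusted p = 0.199), the second smallest p of all genes tested. Without C_O15 it was -2.28 with an adjusted p of 0.0187 (limma), and without C_O72 and MS_W95 it was -1.95 with an adjusted p of 0.0972. With other single libraries left out the adjusted p reached 0.518 (limma). Unc13c had an interaction of -2.70 (adjusted p = 0.361), Sv2c of -1.71, Syt6 of 2.73 (adjusted p = 0.402) and Syt7 of 1.47. These 5 of the 40 genes had an unadjusted p under 0.05 (7.23% of all genes), with the interaction above 0 in Syt6 and Syt7 (3.6% of all) and below 0 in the other 3 (3.63% of all), and none of the 40 passed the adjusted threshold by limma (0% of all genes) or by edgeR (0%). DESeq2 called Doc2b, Syt6 and Unc13c (0.757% of all genes). In 10 libraries 5 of the 40 had an unadjusted p under 0.05 (7.51% of all genes), and none passed the adjusted threshold (0.145% of all).

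Over the 4 groups, Doc2b ordered as C_W, C_O, MS_O and MS_W by mean FPKM. C_O and MS_O, the neighbours at 5.90 and 6.97 FPKM, overlapped, and C_W and MS_W lay outside their ranges without overlap. Of the other 39 genes, 38 had a mean of at least 1 FPKM and were correlated with Doc2b, and Syn3 did not. Across the 12 libraries, which fall into 4 groups and include the 2 apart, Pearson's r with Doc2b on the log2(FPKM + 1) scale was 0.721 for Unc13c, 0.694 for Sv2c and 0.675 for Syt9, and it was lowest for Snap25 at -0.707. Among the 13620 other genes with a mean of at least 1 FPKM, the 5 with the highest r over the 12 libraries were 1810030O07Rik (0.929), Cartpt (0.928), Baiap3 (0.914), Srgap1 (0.911) and Thsd7a (0.910). Baiap3 encodes a Munc13-related protein of dense-core vesicle release, and Cartpt the precursor of the CART peptides.

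A list of 80 further genes of the release pathway, 78 of them tested, held the SNARE-binding proteins, active zone scaffolds, further Rabs and synaptotagmins, endocytic proteins, neurexins and calcium channel subunits. None of the 78 passed an adjusted p of 0.05 in any comparison by limma in 12 libraries or by edgeR. DESeq2 called 5 in MS_W vs C_W (Apba1, Dnm1, Rab27a, Rph3al and Sncb), beside 1.87% of all genes, Doc2g in MS_O vs C_O (0.862% of all), and Rab27a and Rph3al for the interaction (0.757% of all). By limma, unadjusted p-values under 0.05 numbered 11 in MS_W vs C_W (5 higher, 6 lower), or 14.1% of the 78 beside 10.5% of all genes. In MS_O vs C_O they numbered 8 (7 higher, 1 lower), or 10.3% beside 8.88%, and in C_O vs C_W 1 (lower), or 1.28% beside 3.55%. In MS_O vs MS_W they numbered 5 (2 higher, 3 lower), or 6.41% beside 6.09%, and for the interaction 6, or 7.69% beside 7.23%. Their median log2 difference in MS_W vs C_W was -0.01. Rph3al measured 0.166, 0.172 and 0.194 FPKM in C_W and 0.588, 0.686 and 1.21 FPKM in MS_W, a log2 difference of 0.62 (SE 0.149, adjusted p = 0.260), with an adjusted p of 0.0412 in 10 libraries. Its level stayed at or below 1.21 FPKM throughout, so the pseudocount shrinks its difference. Sncb, which encodes beta-synuclein, measured 167 to 184 FPKM in C_W and 128 to 140 FPKM in MS_W, and Dnm1, the dynamin of synaptic endocytosis, measured 214 to 222 and 149 to 169 FPKM. Both pairs of groups did not overlap, with adjusted p-values of 0.275 and 0.299 (limma).

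In MS_O vs C_O the smallest unadjusted p-values of the further genes were those of Cask, Doc2g and Synpr. Cask, an active zone scaffold kinase, measured 4.50 to 6.64 FPKM in C_O and 7.50 to 10.2 FPKM in MS_O. Doc2g, the third Doc2 gene, measured 0.779, 5.73 and 2.20 FPKM in C_O15, C_O30 and C_O72 and 9.30, 61.8 and 68.3 FPKM in MS_O13, MS_O46 and MS_O78, a 16.02-fold difference of means (limma, adjusted p = 0.479). Like Syt6, it was highest in MS_O46 and MS_O78, the libraries with the highest olfactory bulb sums. The part of these markers in the Doc2g difference was not tested. Synpr, the synaptoporin gene and itself 1 of the 7 olfactory bulb markers, measured 3.23 to 14.7 FPKM in C_O and 11.9 to 38.3 FPKM in MS_O. In C_O vs C_W the 1 gene was Rab27b, a vesicle docking GTPase, at 1.22 to 1.58 FPKM in C_O and 2.01 to 2.60 FPKM in C_W. In MS_O vs MS_W they were Rph3al, Rab27a and Dnm3, at log2 differences of -0.50, -0.79 and -0.55, with the highest value of each in MS_W95.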

How the data were processed

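Poly(A) RNA of 12 mouse brains was sequenced in 4 groups of 3. Per the methods and the submitters' processing notes, the authors trimmed reads with cutadapt 1.9, aligned them to mm10 with HISAT2 2.0.4 and assembled and quantified them with StringTie 1.3.4d, and the deposited table gives FPKM and an estimated count per gene and library, with no pooled replicates. A gene without an estimate is listed at 0.0001 FPKM. The library kit marked strand, but the strand setting of the counting is not given in the sources used here.

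FPKM were taken as deposited and fitted as log2(FPKM + 1) with limma 3.58.1 (R 4.3.3, empirical Bayes with trend), 1 fit of the 4 groups over the 21393 genes with a mean of at least 0.1 FPKM, and p-values were adjusted by Benjamini-Hochberg over all of them. An adjusted p under 0.05 was the threshold, and tests were two-sided. Each mouse gave 1 library. In the main fit the 4 groups shared 1 estimate of the spread per gene, so p-values also rest on mice outside the comparison. Without C_O72, 101 of the 21393 genes passed in MS_W vs C_W, against 1 with it. The fits were tried on simulated data with large planted changes, a limited spread and no library standing apart. That setting was milder than these data, so it does not show how the fits perform on them. Alternatives were edgeR 4.0.16 and DESeq2 1.42.0 on the deposited estimated counts, taken as integers, other pseudocounts, filters and scalings, fits of 2 groups, and fits without single libraries or without C_O72 and MS_W95.

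The 40 genes, the further list and the marker lists were chosen with earlier results of these data known, and the 40 were drawn up around Doc2b. Values per mouse are given for Doc2a, Doc2b, Rph3a and the members with an unadjusted p under 0.05 in any comparison. Of the further genes, those past the adjusted threshold are named and, per comparison of 2 groups, up to 3 with the smallest unadjusted p under 0.05. Genes within 100000 bp of Doc2b and the 5 genes most correlated with it are named too. Stx1a, Vamp1, Syt5, Cplx3 and other members given by ranges were singled out after their values were seen. Of the 40 genes, 35 had the same coordinates in GENCODE M21.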

Additional observations from a re-analysis of the deposited data

How the results depend on the processing

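No paired analysis was possible because the mouse numbers are not shared between the groups. The log2 difference of Doc2b in MS_W vs C_W was 2.18 to 2.42 when single libraries were left out (adjusted p 0.000863 to 0.0555) and passed the threshold in all other alternatives (adjusted p 4.26e-19 to 0.0173), except without MS_W75, where it was 2.31 (adjusted p = 0.0555). In C_O vs C_W it passed in DESeq2 alone (1.03). In MS_O vs MS_W it passed in DESeq2 (-1.34), in the fit of only the 2 groups (-1.25) and without C_O15 (-1.25). Over single libraries left out it ranged from -1.31 to -1.18 (limma, adjusted p 0.0464 to 0.504). For the interaction it passed in DESeq2 (-2.37) and without C_O15 (-2.28). Over single libraries left out it ranged from -2.28 to -1.87 (limma, adjusted p 0.0187 to 0.518). No direction of Doc2b reversed in any alternative. Counts of the 40 genes past the adjusted threshold were 1, 0, 0, 0 and 0 in MS_W vs C_W, MS_O vs C_O, C_O vs C_W, MS_O vs MS_W and the interaction. DESeq2 gave 4, 1, 2, 3 and 3 (1.87%, 0.862%, 0.255%, 0.373% and 0.757% of all genes), and both edgeR fits 1, 0, 0, 0 and 0 (at most 0.00467% of all genes). The fit of only the 2 groups gave 2 in MS_W vs C_W (0.566% of all) and 1 in MS_O vs MS_W (0.0561%), and 10 libraries gave 2 in MS_W vs C_W (1.15%). Leaving out single libraries gave 0 to 2 in MS_W vs C_W (0 without MS_W75, 2 without C_O72, beside 0.472% of all genes), 0 to 1 in MS_O vs C_O (1, Syt6, without MS_O13, beside 0.524%), 0 in C_O vs C_W, 0 to 1 in MS_O vs MS_W (1 without C_O15, Doc2b, and 1 without MS_O13, Syt6, each beside 0.0467%) and 0 to 1 for the interaction (1 without C_O15, beside 0.0935%). Unadjusted counts in MS_W vs C_W were 13 in the fit of only the 2 groups (13.8% of all genes) and 15 in 10 libraries (15.4%). With single libraries left out they ran from 5 to 13. They were 5 without C_W1 (8.25% of all genes), C_W70 (6.66%) or MS_W95 (9.08%), and 13 without C_O72 (15.8%). In MS_O vs C_O they were 2 in the fit of only the 2 groups (5.91% of all genes) and 13 in 10 libraries (13.6%). With single libraries left out they ran from 1 without MS_O46 (4.29%) or MS_O78 (5.34%) to 10 without MS_O13 (13.8%). Over single libraries they ran from 2 without C_W64 (2.2% of all genes) to 6 without C_O15 (8.26%) in C_O vs C_W. In MS_O vs MS_W they ran from 3 without MS_O46 (4.15%) to 8 without C_O72 (9.12%). For the interaction they ran from 4 (4.64% to 5.51% of all genes) to 11 without C_O30 (9.73%). The cause of these shifts was not tested. Each group held 3 mice, which limits every comparison. In the fits on 10 libraries C_O and MS_W held 2 mice each, which limits those fits further. Doc2b had 827 to 6044 estimated counts per library, and the lowest count of any member in any library was 43, so counting error is larger for the low members.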
